A study of Homo sapiens with 2 samples.

Results

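The collagen genes were followed in HEK293 cells, an established line derived from human embryonic kidney, with and without LARP7. They were taken as every protein-coding gene of GENCODE v29 whose symbol has the form COL, a type number, A and a chain number, which gave 44 of 19815 protein-coding genes, and their estimated reads and TPM were summed over transcripts. Of these, 26 reached at least 10 reads in at least 2 of the 4 libraries and are described here, and 18 were off or nearly off. The groups were LARP7 knockout cells, all from 1 clone (clone 1-11), and the parental HEK293 cells, with 2 total RNA libraries each, grown in the same medium and with no treatment given in the labels. LARP7 is an RNA-binding protein that keeps 7SK RNA stable, which in turn restrains the elongation factor P-TEFb, and the study asked how its loss affects expression and splicing. With 1 clone, effects of the knockout and of clonal origin cannot be told apart. The labels do not say whether replicates were separate cultures, and p-values cover only the spread of these 4 libraries, possibly a technical one.

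Collagens are extracellular matrix proteins in which chains wind around each other as a triple helix. Fibril-forming collagens give tissues their tensile strength, type IV collagens form the sheet of basement membranes, type VI collagens form beaded filaments, and transmembrane and fibril-associated collagens connect cells or fibrils to the matrix. Many collagens need chains from different genes, so a gene can be transcribed while its usual partner chain is not.

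The libraries held 16838501 and 16218587 estimated reads in knockout cells, and 18483220 and 12851942 in parental cells. Both knockout libraries had longer fragments than both parental ones, by the gap between transcript length and effective length (232.9 and 225.8 bases against 217.0 and 206.7). Small and structural RNA types, such as snRNA, snoRNA and misc_RNA, held 33.2 and 37.4% of all TPM in knockout cells and 38.4 and 54.5% in parental cells, so parental replicate 2 stood apart; the part of fragment length and depth in the results was not tested. Levels are therefore given as CPM, gene counts per library total after TMM scaling, and, where genes are compared with each other, as TPM rescaled over protein-coding genes. LARP7 itself had 36.1 and 31.9 CPM in knockout cells and 59.8 and 46.5 CPM in parental cells, a difference that did not pass the test (log2 fold change -0.65, edgeR adjusted p = 0.135), though it did with DESeq2 (adjusted p = 0.0421, in a range of 9.59e-06 to 0.687 over all fits), and reads of LARP7 transcripts remained in the libraries labelled knockout. The 7SK locus entry that holds reads, ENSG00000202198, chosen after its values were seen, fell to 169.5 and 204.5 CPM in knockout cells, against 5572 and 5481 CPM in parental cells (edgeR adjusted p = 1.13e-06). The RN7SK entry had 0 reads in the 4 libraries. One label field of the knockout sample reads wildtype, against its title and genotype field, which were followed. The 6 HEK293 markers summed to 637 and 635 CPM in knockout cells and 605 and 583 CPM in parental cells, and the neurofilament gene NEFM fell among them (7.76 and 8.58 CPM against 49.4 and 73.6, edgeR adjusted p = 0.00164). Fibroblast, smooth muscle, endothelial, blood, chondrocyte and osteoblast marker lists summed to between 0.318 and 12.6 CPM in every library, and FAP, PECAM1, CDH5 and IBSP were at 0 in all 4; the part of other cell types in the results below was not tested.

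Across the collagen family, 1 gene passed the test and it was lower in the knockout: COL2A1, the chain of type II collagen, the main fibrillar collagen of cartilage. Across all 18484 genes tested, 0.833% passed at an edgeR adjusted p under 0.05, 0.33% higher and 0.503% lower, and among the 26 collagen genes described 0 were higher, 1 was lower and 25 did not pass. At an unadjusted edgeR p under 0.05 there were 4 of the 26, against 2635 of all 18484 genes tested. The 4 were COL2A1, COL4A5, COL18A1 and COL24A1. The median log2 fold change was 0.05 over the 26 collagen genes and 0.00 over all genes tested, and 19 of the 26 differed by less than 0.5 on the log2 scale. Both knockout libraries lay above both parental libraries for 7 collagen genes and below them for another 7, against 23.5% and 22.7% of all genes tested. COL4A3 and COL11A2 reached the read minimum only through the knockout libraries and COL2A1 and COL24A1 only through the parental ones, so these 4 had to differ between the groups and the counts over the 26 support nothing by themselves.

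**Figure D1:**
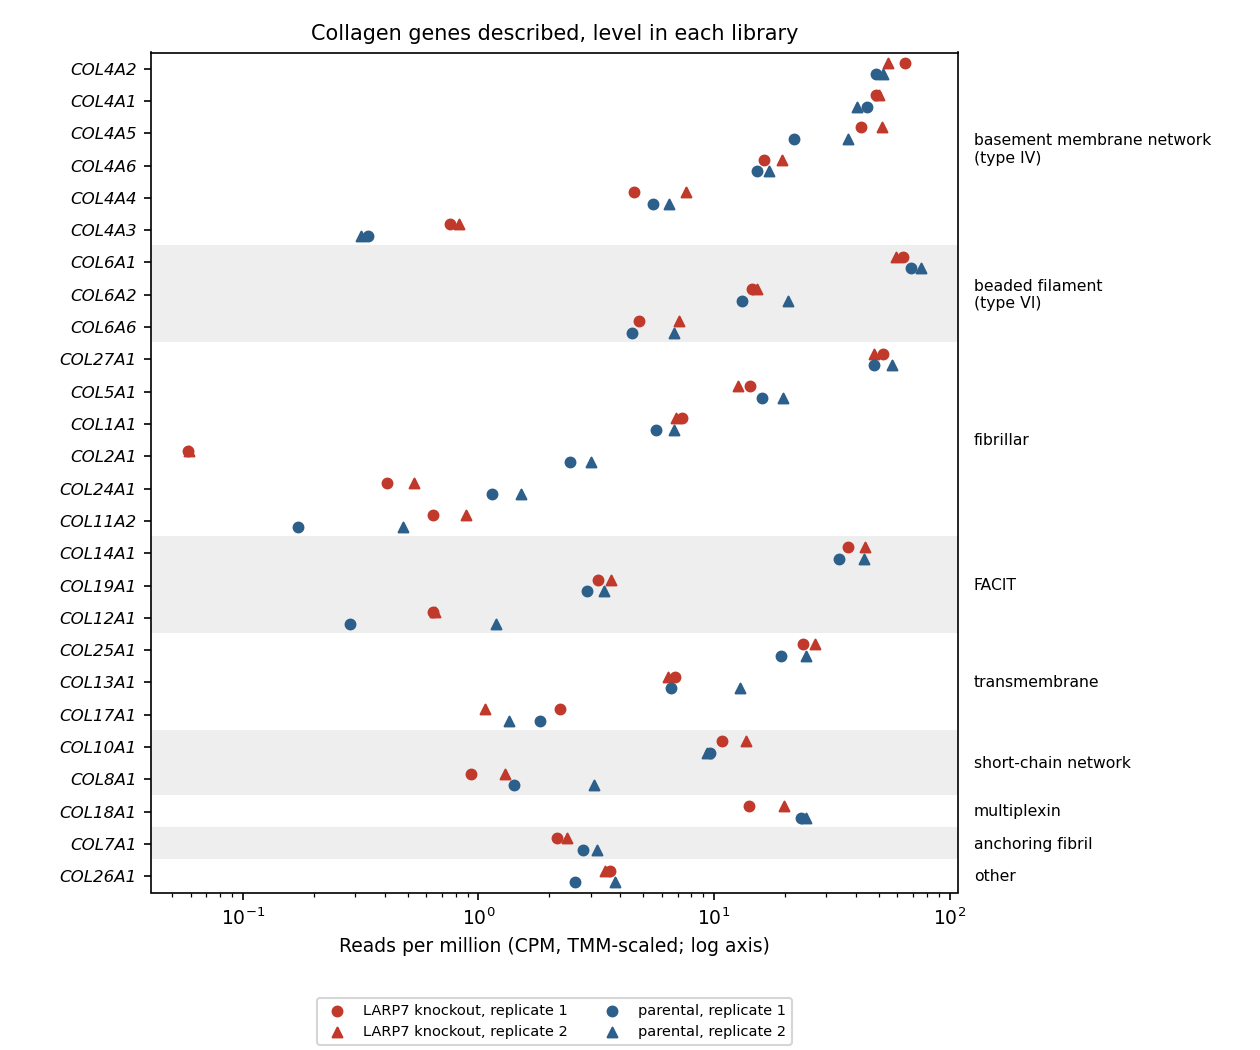
Level of each of the 26 collagen genes described in each library, in CPM on a log axis, ordered by class and, within a class, by level. Red marks are the 2 knockout libraries and blue marks the 2 parental ones; COL2A1 is the gene whose groups lie farthest apart, at 0.058 and 0.059 CPM in knockout cells and 2.44 and 3.02 CPM in parental cells.

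**Figure D2:**
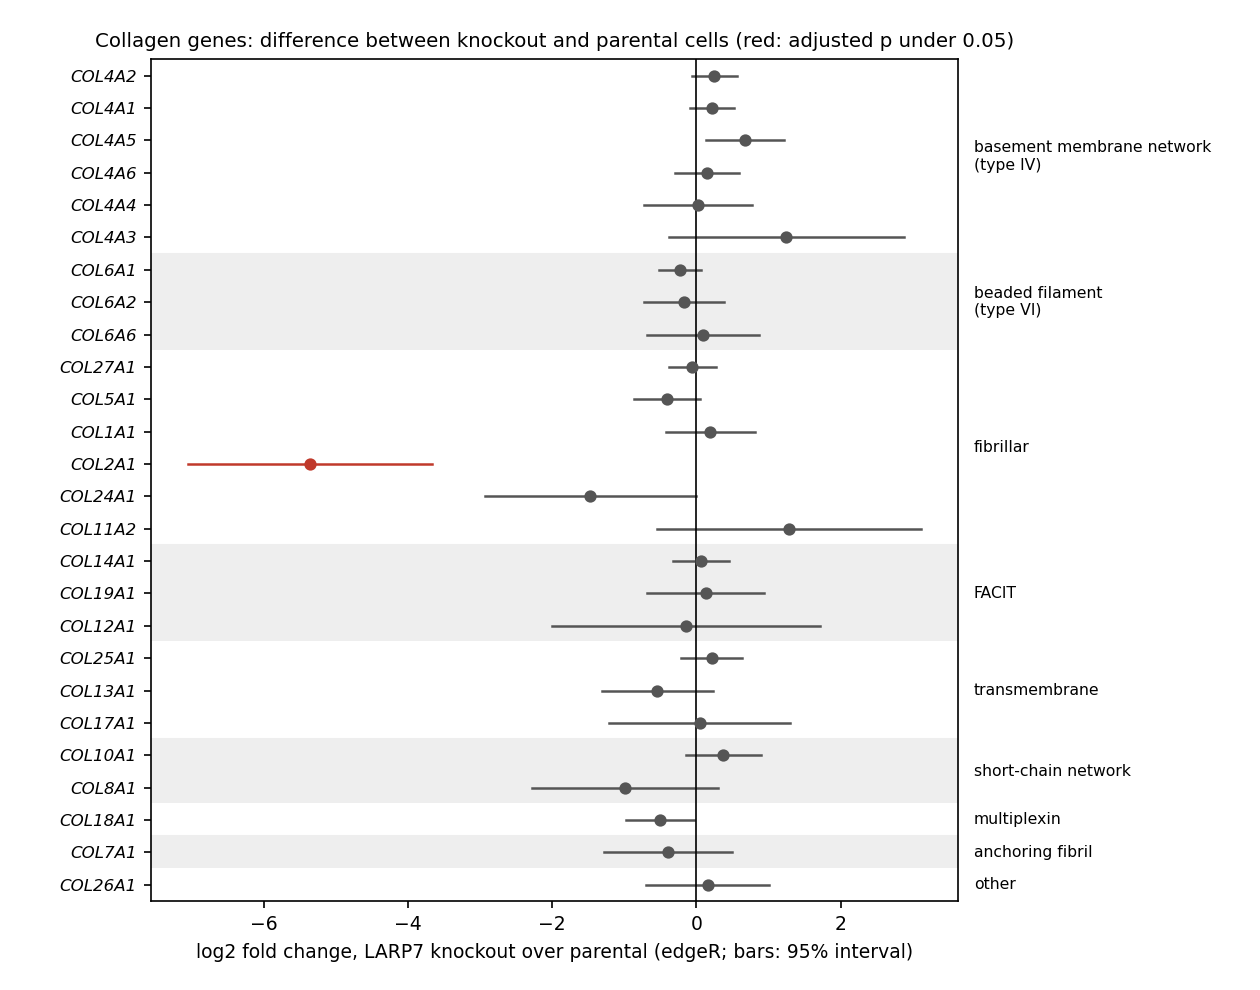
Log2 fold change of each described collagen gene, LARP7 knockout over parental, from edgeR, with 95% intervals as bars. COL2A1, in red, is the gene with an adjusted p under 0.05 (log2 fold change -5.36); of the others, the intervals of COL4A5, COL18A1 and COL24A1 leave out 0 but these genes did not pass after adjustment.

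COL2A1 (ENSG00000139219, chr12:47972965-48004554, minus strand, GRCh38) had 1 and 1 reads in knockout cells and 43 and 38 reads in parental cells. That is 0.058 and 0.059 CPM in knockout cells, against 2.44 and 3.02 CPM in parental cells, and the groups did not overlap. It was a low gene in the parental cells as well, at 2.09 and 1.72 TPM over protein-coding genes, where COL4A2 had 31.7 and 43.4. Of that COL2A1 TPM, the retained-intron transcript COL2A1-207 held 40.3 and 45.0%, from 4.46 and 2.80 reads. Short transcripts also held much of the COL4A2 TPM. The log2 fold change of COL2A1 was -5.36 (SE 0.74, edgeR adjusted p = 0.0174). With 2 reads in all in the knockout, the depth-scaled ratio of parental to knockout reads was 45.7, with a 95% counting interval of 12.2 to 383, which covers counting error only. The gene passed under each of the 13 other fits run, with edgeR, DESeq2 or limma adjusted p from 6.27e-08 to 0.0438 and log2 fold changes between -6.21 and -4.94. SOX9, SOX5 and SOX6, the transcription factors that drive type II collagen in cartilage, were chosen for mention after their values were seen. SOX9 had 10.3 and 8.76 CPM in knockout cells and 6.65 and 10.0 CPM in parental cells. SOX5 had 8.87 and 12.9 CPM in knockout cells and 6.48 and 14.5 CPM in parental cells, and SOX6 had 17.6 and 20.9 CPM against 13.4 and 18.9. The groups overlapped for all 3, with edgeR adjusted p of 0.794, 0.961 and 0.646. The other tested genes of the chondrocyte marker list, likewise chosen after their values were seen, were ACAN, for a cartilage proteoglycan, and MATN1, for a cartilage matrilin. ACAN had 1.23 and 1.12 CPM in knockout cells and 1.25 and 1.27 CPM in parental cells (adjusted p = 0.959). MATN1 had 1.05 and 0.71 CPM in knockout cells and 0.398 and 0.238 CPM in parental cells (adjusted p = 0.433), so that its knockout libraries were the higher ones. The 55 expressed protein-coding genes within 5 Mb of COL2A1 had a median log2 fold change of 0.05, near the 0.02 of all 9894 such genes.

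Most COL2A1 reads of the parental cells were assigned to the long transcript COL2A1-202, with 35 and 35.2 reads, against 1 and 0 in the knockout. None was assigned to the other long form, COL2A1-201. COL2A1-202 (54 exons, 5071 bases) carries exon 2, which COL2A1-201 (53 exons, 4442 bases) skips. As background, the form with this exon, type IIA, is the embryonic and pre-cartilage form and encodes an extra cysteine-rich domain, while mature cartilage makes the form without it. The exon is shown because it is the one exon of COL2A1-202 that no exon of COL2A1-201 overlaps, and it stays in lower case since the whole exon is the difference (GENCODE v29, chr12:47999919-48000125, minus strand, 207 bases, written 5′ to 3′ as transcribed).
COL2A1-202 exon 2: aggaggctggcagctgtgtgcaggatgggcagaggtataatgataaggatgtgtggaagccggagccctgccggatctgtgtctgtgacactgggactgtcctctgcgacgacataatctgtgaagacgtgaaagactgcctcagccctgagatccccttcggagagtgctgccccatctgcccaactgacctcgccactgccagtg
The transcripts differ in length by more than this exon, and the deposited tables give no read positions, so whether the reads crossed exon 2 was not tested. COL2A1 was not among the genes that the test of transcript usage could take.

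The type IV genes, which encode the network-forming chains of basement membranes, all had positive log2 fold changes. These ran from 0.02 to 1.24 with a median of 0.23, and 0 of 6 passed. Of all 18484 genes tested, 9299 had positive values. COL4A3 reached the read minimum only through the knockout libraries, so its sign was set by that rule. COL4A4 turned to -0.0078 with limma voom and to -0.0041 among protein-coding genes alone. It was -0.38 without knockout replicate 2 and -0.089 without parental replicate 1. The type IV genes lie as 3 head-to-head pairs that are transcribed away from each other. These are COL4A1 and COL4A2 on chromosome 13, COL4A3 and COL4A4 on chromosome 2, and COL4A5 and COL4A6 on the X chromosome. The chains of COL4A1 and COL4A2 make the network found in nearly all basement membranes, and those of COL4A3, COL4A4 and COL4A5 make the network of the mature glomerular basement membrane in kidney. Promoter windows of 250 bases before to 50 after the start (RefSeq, GRCh38.p14) are shown for COL4A5, which had the smallest p among the genes that did not pass, its partner COL4A6, and COL4A1. The window of COL4A2 shares 226 of its bases with that of COL4A1 and is left out. Capitals mark matches, on either strand, to the CCAAT box, searched by those letters, and to the GC box, searched as GGGCGG.
COL4A5: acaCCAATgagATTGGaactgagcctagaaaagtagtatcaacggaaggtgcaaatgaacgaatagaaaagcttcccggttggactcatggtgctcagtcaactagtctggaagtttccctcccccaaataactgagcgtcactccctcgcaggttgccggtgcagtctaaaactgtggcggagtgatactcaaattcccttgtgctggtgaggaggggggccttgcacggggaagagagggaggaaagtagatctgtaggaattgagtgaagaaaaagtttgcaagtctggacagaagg
COL4A6: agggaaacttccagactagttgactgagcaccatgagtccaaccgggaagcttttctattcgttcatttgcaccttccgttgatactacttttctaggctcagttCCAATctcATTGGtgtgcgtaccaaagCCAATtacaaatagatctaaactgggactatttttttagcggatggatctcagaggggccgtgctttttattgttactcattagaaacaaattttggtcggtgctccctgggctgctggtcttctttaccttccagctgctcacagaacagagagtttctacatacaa
COL4A1: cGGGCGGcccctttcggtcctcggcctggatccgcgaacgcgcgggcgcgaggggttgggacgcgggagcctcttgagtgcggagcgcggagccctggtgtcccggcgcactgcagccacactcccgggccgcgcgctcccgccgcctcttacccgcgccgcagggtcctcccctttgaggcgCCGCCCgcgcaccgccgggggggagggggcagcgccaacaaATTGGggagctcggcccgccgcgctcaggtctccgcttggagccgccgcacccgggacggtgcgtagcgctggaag
The windows are chrX:108439588-108439887 on the plus strand for COL4A5, chrX:108439409-108439708 on the minus strand for COL4A6 and chr13:110307108-110307407 on the minus strand for COL4A1. The COL4A5 and COL4A6 windows share 121 bases, which hold the facing pair of CCAAT matches, so 2 of the 3 CCAAT matches of COL4A6 are those of COL4A5. Neither holds a GC box, while the COL4A1 window holds 2 GC boxes and 1 CCAAT match. The 3 windows shown hold no TATAAA on either strand. COL4A6 has another window, chrX:108438373-108438672, which is not shown and holds 1 GC box and 0 CCAAT matches. Of all 35116 promoter windows, 34.6% hold at least 1 CCAAT match, 10.8% hold 2 or more, 45.0% hold a GC box and 11.5% hold TATAAA. Windows were found for 21 of the 26 described genes; COL14A1, COL1A1, COL2A1, COL6A1 and COL8A1 had none.

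COL4A5 had 42.0 and 51.4 CPM in knockout cells and 21.9 and 37.0 CPM in parental cells. Both knockout libraries were above both parental ones, but the 2 parental libraries lay 0.75 apart on the log2 scale, more than the log2 fold change of 0.67 (SE 0.24, edgeR adjusted p = 0.259). The COL4A5 log2 fold change was 1.09 without parental replicate 2 and 0.33 without parental replicate 1, so its size depended on which parental library was kept. The gene passed with no filter on low counts (edgeR adjusted p = 0.00696). COL4A6, transcribed from the other side of the same interval, had 16.2 and 19.5 CPM in knockout cells and 15.2 and 17.1 CPM in parental cells, and the groups overlapped (log2 fold change 0.15, SE 0.19, adjusted p = 0.781). Whether the 2 genes of the pair differ in their response was not tested.

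Summed over transcripts, COL4A2 had the highest level per length of the collagen genes in the knockout. It had 65.5 and 43.5 TPM over protein-coding genes there and 31.7 and 43.4 in parental cells. In knockout replicate 2 COL4A5 was level with it, at 43.47 against 43.48. The 6281-base COL4A2-201 held 22.7 and 33.2% of COL4A2 TPM in knockout cells and 34.6 and 27.1% in parental cells. The 679-base COL4A2-204 held 32.15 and 45.0% against 36.6 and 47.8%, and the 535-base COL4A2-206 32.2 and 0% against 12.6 and 13.05%. Of the reads, COL4A2-201 had 906.9 of 1106 and 821.1 of 928 in knockout cells. In reads COL4A2 had 64.6 and 54.9 CPM in knockout cells and 48.5 and 52.0 CPM in parental cells (log2 fold change 0.25, SE 0.14, edgeR adjusted p = 0.459). COL4A1 had 48.5 and 49.99 CPM in knockout cells and 44.4 and 40.5 CPM in parental cells (log2 fold change 0.21, SE 0.13, adjusted p = 0.522), and its log2 fold change was 0.0034 with an offset for transcript length. For both, the knockout libraries were the higher ones and the test did not pass, and the 95% intervals of the log2 fold change ran from -0.06 to 0.57 and from -0.09 to 0.52. COL4A4 had 4.55 and 7.57 CPM in knockout cells and 5.51 and 6.43 CPM in parental cells. COL4A3, its partner, was close to the read minimum, with 13 and 14 reads in knockout cells and 6 and 4 in parental cells, and its log2 fold change of 1.24 had an SE of 0.71. An antisense RNA that overlaps COL4A3, AC097662.1, had 33 and 6 reads in knockout cells and 1 and 3 in parental cells, and since the strand setting is not given in the sources used here, reads of the 2 genes may not be separated.

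**Figure D3:**
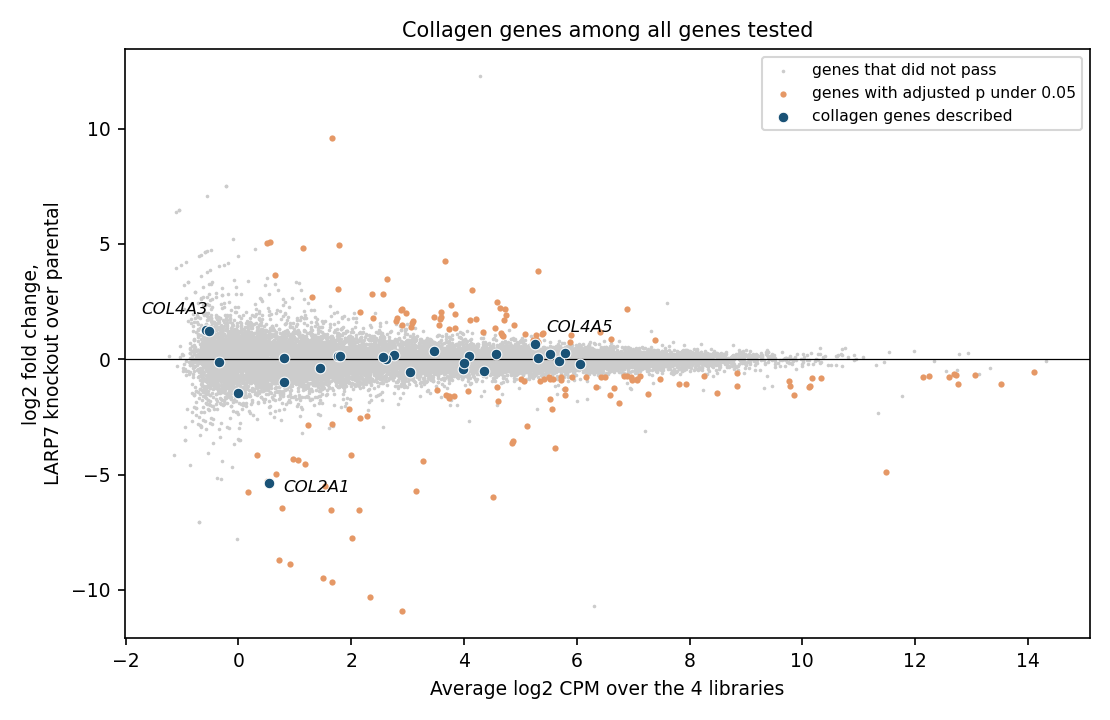
Log2 fold change, LARP7 knockout over parental, against average log2 CPM for the 18484 genes tested, with genes past an adjusted p of 0.05 in orange and the 26 described collagen genes in blue. Collagen genes lie within the cloud of genes that did not pass, except COL2A1 at -5.36.

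The other fibrillar genes did not pass. COL27A1, a fibrillar collagen of cartilage and other tissues, was the highest of them, at 52.4 and 47.9 CPM in knockout cells and 47.6 and 56.9 CPM in parental cells. Its groups overlapped and its log2 fold change of -0.06 had a 95% interval of -0.39 to 0.27. COL5A1, which helps to start and limit the width of type I fibrils, had 14.2 and 12.7 CPM in knockout cells and 16.0 and 19.7 CPM in parental cells (log2 fold change -0.41, SE 0.20, edgeR adjusted p = 0.411). COL1A1, the major chain of type I collagen, had 7.30 and 6.86 CPM in knockout cells and 5.68 and 6.75 CPM in parental cells. Its usual partner COL1A2 had no read in any library, which allows up to 0.175 and 0.177 CPM in knockout cells and 0.17 and 0.238 CPM in parental cells at 3 reads. COL5A2, the usual partner of COL5A1, had 9 and 13 reads in knockout cells and 7 and 8 in parental cells. COL24A1 had 7 and 9 reads in knockout cells and 20 and 19 in parental cells (log2 fold change -1.47, SE 0.64, adjusted p = 0.349), and COL11A2 had 11 and 15 reads in knockout cells and 3 and 6 in parental cells (log2 fold change 1.28, SE 0.80, adjusted p = 0.521). With an offset for transcript length COL24A1 had a log2 fold change of 0.69.

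Among type VI genes, COL6A1 had the highest mean CPM of any collagen gene. It had 63.4 and 59.4 CPM in knockout cells and 68.4 and 75.6 CPM in parental cells (log2 fold change -0.23, SE 0.13, edgeR adjusted p = 0.457), with the knockout libraries below both parental ones. COL6A2, its neighbour on chromosome 21 in the same orientation, had 14.5 and 15.3 CPM in knockout cells and 13.1 and 20.6 CPM in parental cells, and the groups overlapped. COL6A6 had 4.79 and 7.10 CPM in knockout cells and 4.49 and 6.75 CPM in parental cells. COL6A3, the chain that completes the classic type VI trimer with COL6A1 and COL6A2, had 4 and 2 reads in knockout cells and 2 and 2 in parental cells. So 2 of the 3 usual chains were well above the read minimum and the other was below it in both groups.

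COL18A1, a multiplexin of basement membranes whose C-terminal fragment is endostatin, had 14.1 and 19.8 CPM in knockout cells and 23.3 and 24.6 CPM in parental cells. Its groups did not overlap, and the log2 fold change was -0.50 (SE 0.21, edgeR adjusted p = 0.323). It overlaps 1401 bases of SLC19A1 on the opposite strand, a gene with 948 to 1879 reads per library, so its level is uncertain. Its annotated antisense RNA COL18A1-AS1 had 23 and 30 reads in knockout cells and 38 and 45 in parental cells. COL14A1, a fibril-associated collagen, had 36.9 and 43.8 CPM in knockout cells and 34.1 and 43.3 CPM in parental cells. COL25A1, a transmembrane collagen of nerve and muscle, had 23.8 and 26.9 CPM in knockout cells and 19.2 and 24.6 CPM in parental cells. For both, the groups overlapped, with log2 fold changes of 0.06 and 0.21.

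COL13A1, a transmembrane collagen of cell adhesion sites, had 6.83 and 6.39 CPM in knockout cells and 6.53 and 12.9 CPM in parental cells. Parental replicate 2 alone was high: the log2 fold change was -0.54 with all libraries, 0.01 without parental replicate 2, and -0.96 without parental replicate 1, where it passed (edgeR adjusted p = 0.0234, in a range of 0.0234 to 1 over all fits). COL10A1, the short-chain collagen known from growth plate cartilage, had 10.9 and 13.7 CPM in knockout cells and 9.60 and 9.37 CPM in parental cells (log2 fold change 0.37, SE 0.23, adjusted p = 0.506). COL8A1, the other short-chain gene described, had 0.934 and 1.302 CPM in knockout cells and 1.42 and 3.10 CPM in parental cells. Its log2 fold change was -0.99 (SE 0.57, edgeR adjusted p = 0.475). COL8A2, also a short-chain gene, was below the read minimum. COL7A1, the anchoring fibril collagen of skin, had 2.16 and 2.37 CPM in knockout cells and 2.78 and 3.18 CPM in parental cells. Its log2 fold change of -0.39 turned to 1.04 with an offset for transcript length. COL12A1, COL17A1, COL19A1 and COL26A1 lay between 0.284 and 3.81 CPM in every library, with groups that overlapped and log2 fold changes between -0.14 and 0.16. With the offset for transcript length their log2 fold changes were wider apart, at -0.60 for COL12A1, -0.53 for COL17A1, 0.82 for COL19A1 and -0.18 for COL26A1.

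The 18 genes below the read minimum had at most 16 reads in any library. COL1A2, COL5A3, COL11A1 and COL22A1 had none in the 4 libraries. COL3A1, COL5A2, COL6A3, COL6A5, COL8A2, COL9A1, COL9A2, COL9A3, COL15A1, COL16A1, COL20A1, COL21A1, COL23A1 and COL28A1 had a few. Just below the minimum were COL8A2, with 8 and 16 reads in knockout cells and 3 and 3 in parental cells, and COL3A1, with 2 and 3 reads in knockout cells and 7 and 16 in parental cells. Just above it, COL12A1 had 11 and 11 reads in knockout cells and 5 and 15 in parental cells. Of the 18, COL5A2 was the 1 gene that entered the test over all genes, and it did not pass (log2 fold change 0.34, edgeR adjusted p = 0.879).

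All collagen genes together held 0.0129 and 0.0125% of all TPM in knockout cells and 0.00904 and 0.00832% in parental cells. The log2 ratio of the means was 0.55, at a two-sided exact permutation p of 0.33, the smallest that 2 against 2 libraries allow. The share depended on the unit. Of the TPM of protein-coding genes it was 0.0258 and 0.0271% in knockout cells and 0.0195 and 0.0242% in parental cells (log2 ratio 0.28, exact permutation p = 0.33), and of the reads it was 0.0451 and 0.0482% in knockout cells and 0.0383 and 0.0471% in parental cells, where the groups overlapped (log2 ratio 0.13, exact permutation p = 0.667). Type IV genes held the most of it: 0.0180 and 0.0192% of the reads in knockout cells and 0.0129 and 0.0150% in parental cells (log2 ratio 0.41, exact permutation p = 0.33). Within the collagen TPM, COL4A2 averaged 20.7 ± 6.6% in knockout cells and 17.1 ± 1.22% in parental cells (SD, n = 2 each). COL4A5 averaged 14.2 ± 2.6% in knockout cells and 7.79 ± 2.52% in parental cells, and COL6A1 12.8 ± 0.641% against 17.4 ± 2.3%. The first 12 genes in order held 90.3% of the collagen TPM.

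The test of transcript usage asks whether the transcripts of a gene change their shares. It called 65 of 9475 genes (0.686%), and of the 14 collagen genes it could take 0 passed, with 0 at an unadjusted Simes p under 0.05. By the gene-wise F test the unadjusted p was under 0.05 for COL10A1 (0.0467, adjusted 0.57) and COL13A1 (0.0334, adjusted 0.484). In COL13A1 the coding transcript COL13A1-213 held 23.6 and 23.4% of the gene's TPM in knockout cells and 3.54 and 4.83% in parental cells, from 31.9 and 27.6 reads against 4.004 and 7.43. In COL10A1 the transcript COL10A1-202 held 73.6 and 68.2% in knockout cells and 51.8 and 18.9% in parental cells. In COL4A5 the retained-intron transcript COL4A5-209, of 382 bases, held 29.1 and 25.1% in knockout cells and 8.60 and 0% in parental cells, from 15 and 17 reads against 2 and 0. Short transcripts weigh heavily in TPM, and the log2 ratio of COL4A5 in TPM was 1.11 where its log2 fold change in reads was 0.67. The full-length COL4A1-201 held 95.8 and 88.9% of COL4A1 TPM in knockout cells and 78.9 and 80.9% in parental cells. It held nearly all COL4A1 reads in both groups, so that gap rested on few reads of other transcripts. These were 817.9 of 831 and 825.3 of 845 reads in knockout cells, and 760.7 of 782 and 495.5 of 510 in parental cells. COL4A1 was not among the 14 genes that the usage test could take. For COL25A1-208, COL18A1-201 and COL4A6-201 the 2 libraries of a group differed by as much as the groups. COL25A1-208 held 31.6 and 38.3% in knockout cells and 41.3 and 0.005% in parental cells. COL18A1-201 held 5.24 and 50.5% in knockout cells and 3.22 and 7.74% in parental cells. COL4A6-201 held 51.494 and 23.917% in knockout cells and 28.109 and 78.419% in parental cells. In COL4A6 the processed transcript COL4A6-204 held 29.015 and 25.985% in knockout cells and 0 and 8.724% in parental cells. These shares came from 34.046 and 35.158 reads against 0 and 5.896.

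Some collagen genes lie where many genes were lower in the knockout. Within 5 Mb of COL7A1 on chromosome 3, 102 of 106 expressed protein-coding genes had a negative log2 fold change, with a median of -0.34. Over all protein-coding genes tested, with no cut on level, it was 6230 of 13478. Near COL6A6, also on chromosome 3, it was 19 of 40, with a median of 0.001. Around COL18A1, COL6A1 and COL6A2 on chromosome 21 it was 31 of 35, with a median of -0.30, around COL8A1 on chromosome 3 it was 19 of 22 (median -0.24) and around COL14A1 on chromosome 8 it was 23 of 28 (median -0.20). COL18A1, COL6A1, COL6A2, COL7A1 and COL8A1 had negative log2 fold changes themselves, from -0.99 to -0.17, while COL14A1 had 0.06. Some other neighbourhoods leaned the other way. Near COL12A1 4 of 20 neighbours were lower (median 0.18), near COL24A1 7 of 28 (0.06), near COL10A1 7 of 26 (0.12) and near COL19A1 3 of 11 (0.12). COL12A1 and COL24A1 had negative log2 fold changes themselves, at -0.14 and -1.47. COL10A1 and COL19A1 had positive ones, at 0.37 and 0.13. Around the type IV genes the medians ran from -0.06 on chromosome 13 to 0.15 on the X chromosome. A difference in gene copies between the clone and the parental cells was not tested.

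**Figure D4:**
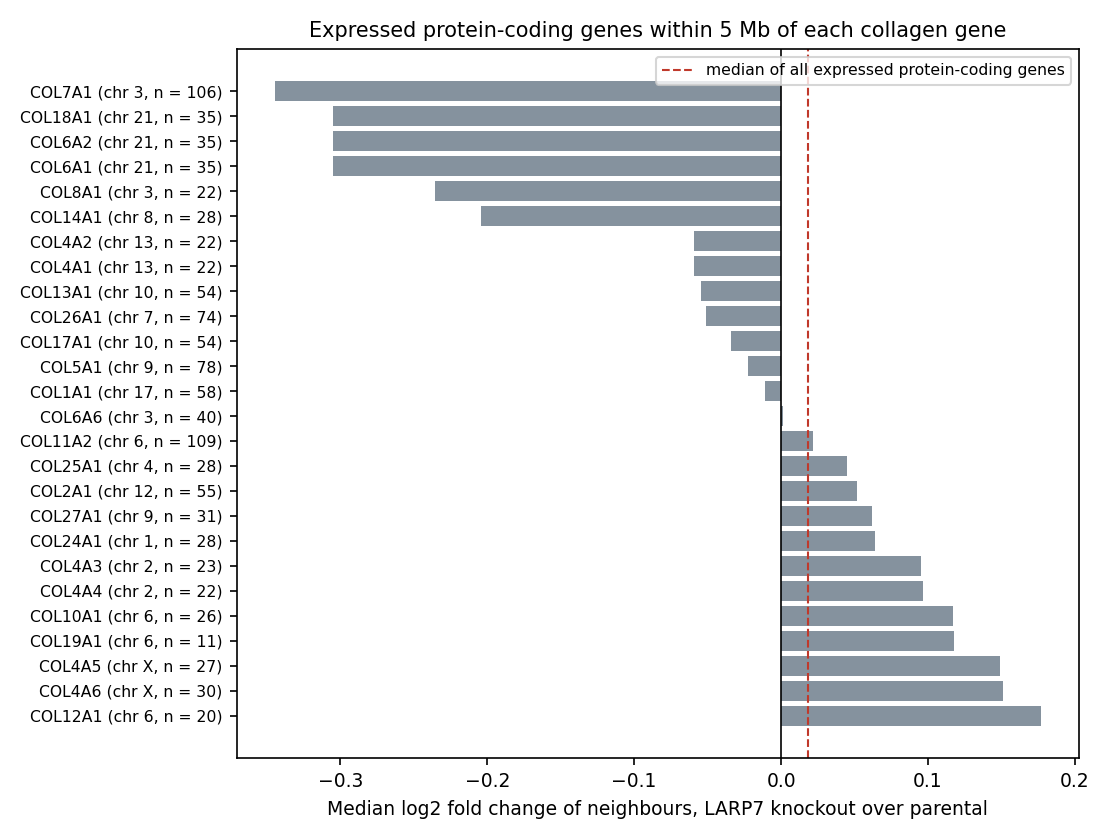
Median log2 fold change, LARP7 knockout over parental, of expressed protein-coding genes within 5 Mb of each described collagen gene, with the number of neighbours in brackets; the dashed line is the median of all 9894 expressed protein-coding genes (0.02). The neighbours of COL7A1, of the 3 genes on chromosome 21, of COL8A1 and of COL14A1 have the lowest medians, from -0.34 to -0.20.

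Genes that make, secrete, cross-link, bind or degrade collagen were followed, with matrix partners, other proteins with collagen domains and regulators of collagen transcription. These made 9 lists of 124 genes, of which 102 were tested. MMP16 passed as higher in the knockout and 0 passed as lower, against a background of 0.33% called higher and 0.503% lower. An unadjusted edgeR p under 0.05 was found for 13 of the 102, against 2635 of all 18484 genes tested. The lists' median log2 fold change was 0.08, against 0.00 over all genes. MMP16, a membrane-bound metalloproteinase, had 46.3 and 53.1 CPM in knockout cells and 26.6 and 28.5 CPM in parental cells (log2 fold change 0.85, SE 0.15, edgeR adjusted p = 0.0446). When knockout replicate 1 or 2 was left out it no longer passed (edgeR adjusted p = 0.0633 and 0.331), with log2 fold changes of 0.95 and 0.76. The same list, for collagen degradation, held 10 other tested genes, among them the metalloproteinase inhibitor gene TIMP3, with 52.2 and 45.6 CPM in knockout cells and 44.4 and 52.2 CPM in parental cells.

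CRTAP, LOX, DDR2, ITGA2, HSPG2 and AGRN were picked from the lists after their values were seen. Of the 15 genes for prolyl and lysyl modification, 0 passed. CRTAP, a subunit of the prolyl 3-hydroxylase complex, had 86.8 and 94.1 CPM in knockout cells and 134.7 and 140.5 CPM in parental cells, with a log2 fold change of -0.61 (SE 0.12, edgeR adjusted p = 0.0678). It passed with DESeq2 (adjusted p = 0.00375), among protein-coding genes alone (edgeR adjusted p = 0.037), with no filter (0.00519) and without parental replicate 1 (0.00221) or 2 (0.000332), in a range of 0.000206 to 0.677 over all fits. P4HB, the beta subunit of prolyl 4-hydroxylase, had 156.6 and 157.8 CPM in knockout cells and 172.8 and 152.7 CPM in parental cells. Of the 12 genes for folding and secretion, 0 passed. MIA3, which loads procollagen into transport carriers, had 256.8 and 258.1 CPM in knockout cells and 212.6 and 234.5 CPM in parental cells (log2 fold change 0.20, adjusted p = 0.474).

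Of 8 tested genes for propeptide processing and 7 for lysyl oxidase cross-linking, 0 passed. FURIN, a proprotein convertase, had 34.5 and 34.3 CPM in knockout cells and 37.6 and 37.2 CPM in parental cells. LOX, which cross-links fibrillar collagen, had 32.6 and 37.9 CPM in knockout cells and 25.9 and 25.6 CPM in parental cells (log2 fold change 0.45, SE 0.16, edgeR adjusted p = 0.249). PXDN, a peroxidase that forms the sulfilimine cross-links of type IV collagen, had 59.0 and 58.5 CPM in knockout cells and 45.2 and 48.2 CPM in parental cells (log2 fold change 0.33, SE 0.13, adjusted p = 0.291), and it passed without parental replicate 2 (edgeR adjusted p = 0.045, in a range of 0.045 to 1 over all fits). Both knockout libraries were above both parental ones for LOX and PXDN, which happened for 23.5% of all genes tested.

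Of 8 tested collagen receptor genes, 0 passed. ITGB1, the common beta chain of the collagen-binding integrins, had 206.4 and 214.3 CPM in knockout cells and 185.5 and 209.0 CPM in parental cells. DDR2, a receptor tyrosine kinase for fibrillar collagen, had 100.0 and 116.7 CPM in knockout cells and 85.3 and 224.9 CPM in parental cells, so its log2 fold change of -0.51 rested on parental replicate 2 and was 0.34 without it. It was -1.06 without parental replicate 1 and passed there (edgeR adjusted p = 3.63e-05, in a range of 3.63e-05 to 0.963 over all fits). ITGA2, the alpha chain of a collagen-binding integrin had 31.8 and 38.2 CPM in knockout cells and 24.04 and 18.7 CPM in parental cells (log2 fold change 0.71, SE 0.19, edgeR adjusted p = 0.145). It passed with no filter on low counts and without parental replicate 1 or 2 (edgeR adjusted p = 0.0107, 0.00401 and 0.0295, in a range of 0.00148 to 0.743 over all fits). Of 15 tested genes for matrix partners, 0 passed. NID1, which links laminin to type IV collagen, had 220.0 and 228.7 CPM in knockout cells and 256.4 and 294.8 CPM in parental cells (log2 fold change -0.30, adjusted p = 0.321), and it passed without parental replicate 1 (edgeR adjusted p = 0.036, in a range of 0.036 to 1 over all fits). The basement membrane proteoglycan genes HSPG2 (log2 fold change -0.84, SE 0.22, adjusted p = 0.148) and AGRN (log2 fold change -0.67, SE 0.17, adjusted p = 0.132) did not pass. HSPG2 had 20.2 and 17.9 CPM in knockout cells and 26.8 and 41.7 CPM in parental cells, and it passed with DESeq2 (adjusted p = 0.0296, in a range of 0.000283 to 0.842 over all fits). Its log2 fold change was -0.16 (edgeR adjusted p = 0.842) once transcript length was offset, -0.50 without parental replicate 2 and -1.13 without parental replicate 1, where it passed (adjusted p = 0.000305). AGRN had 21.9 and 21.9 CPM in knockout cells and 31.4 and 38.1 CPM in parental cells, and under the same 3 settings as ITGA2 it passed (edgeR adjusted p = 0.0283, 0.00406 and 0.0377, in a range of 0.00281 to 0.668 over all fits).

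Of 8 tested genes for other proteins with collagen domains, 0 passed. COLEC12, a scavenger receptor with a collagen-like stalk, had 29.8 and 31.2 CPM in knockout cells and 19.8 and 19.8 CPM in parental cells (log2 fold change 0.63, SE 0.16, edgeR adjusted p = 0.133). It passed with no filter and without parental replicate 1 or 2 (edgeR adjusted p = 0.048, 0.0278 and 0.0137, in a range of 0.00751 to 0.715 over all fits). Of 18 genes for regulators of collagen transcription, 0 passed and the median log2 fold change was 0.09. YBX1, a Y-box binding protein, had 746.9 and 684.7 CPM in knockout cells and 748.4 and 658.7 CPM in parental cells. With library size as the only scaling the median of all genes tested moved from 0.00 to 0.10 and that of the described collagen genes from 0.05 to 0.14, and the share of calls that were higher moved from 39.6 to 56.4%, while the calls among collagen genes and list genes were COL2A1 and MMP16 as before.

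**Figure D5:**
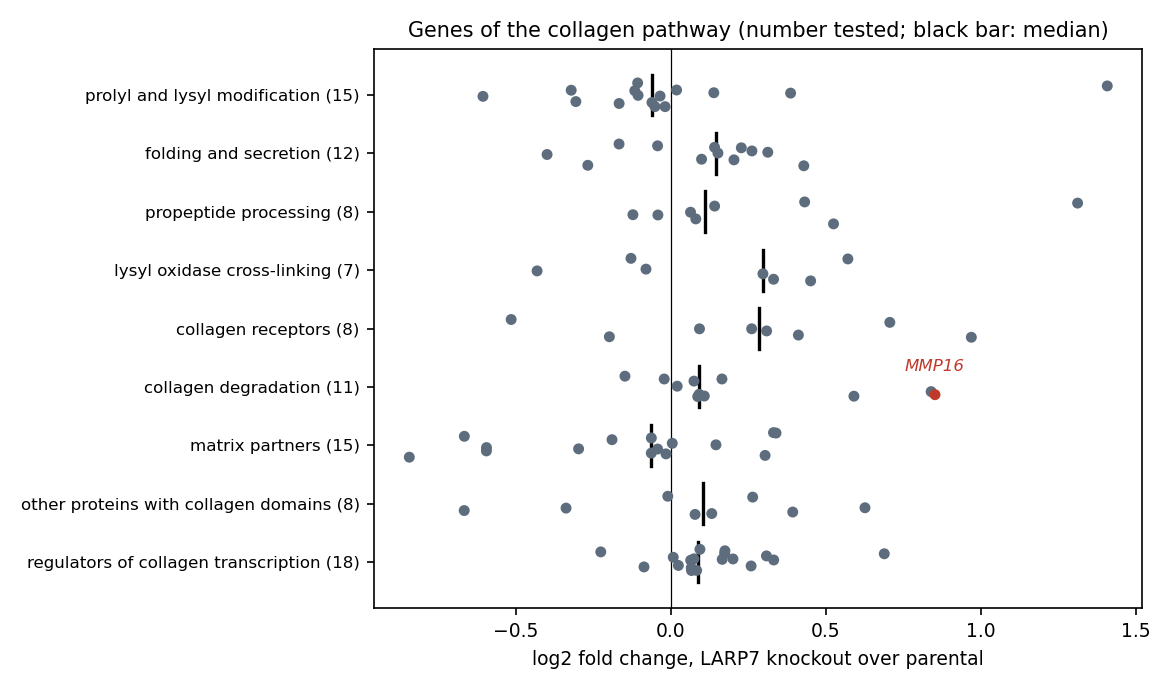
Log2 fold change, LARP7 knockout over parental, of the 102 tested genes of the collagen pathway and related lists. Genes are shown by list, with the number tested in brackets and the list's median as a black bar. MMP16, in red, is the gene with an adjusted p under 0.05 (log2 fold change 0.85).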

How the data were processed

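Total RNA came from TRIzol extraction, and the Ovation SoLo kit was used for libraries, per the labels' protocols. The deposited tables give, per transcript, an estimated count (reads assigned by Salmon, need not be whole), TPM (abundance per length scaled to a fixed total), length and effective length, per the file headers. The submitters' processing notes name Salmon 1.6, STAR 2.5.3a, cutadapt 1.6, edgeR 3.24.3 and build hg38; annotation release and strand setting: not given in the sources used here. Salmon divides reads among similar transcripts, an error the tests do not see.

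Transcripts were joined to GENCODE v29 (197318 of 198002 matched; the 684 others held 0.0631 to 0.0711% of reads), summed per gene and rounded. All genes were tested together with edgeR 4.0.16 in R 4.3.3 (filterByExpr with a minimum count of 10, TMM factors, quasi-likelihood F test, knockout over parental, Benjamini-Hochberg adjusted p under 0.05). SE is the log2 fold change over the root of F. Transcript usage was tested with edgeR's diffSpliceDGE and Simes p, on transcripts with at least 10 reads and 5% of their gene in 2 libraries. For shares, an exact permutation test (two-sided) was used. Counting intervals and the floor of 3 reads cover counting error only. Neighbours were protein-coding genes above 3 in average log2 CPM. Alternatives were DESeq2 1.42.0, limma 3.58.1 voom, other scalings and filters, transcript-length offsets, fits of protein-coding genes alone, replicate numbers as a block and leaving out each library. The steps were tested on simulated data.

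The members, lists and alternatives were chosen with earlier results of these data known. Named were all described members, LARP7 and 7SK, from each list every gene that passed and the gene with the highest mean CPM, and, after their values were seen, the genes said to be so. Of transcripts that hold at least 20% of their gene, those that bear on a result are given. One list symbol, MKL1, matched no gene.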

Additional observations from a re-analysis of the deposited data

How the results depend on the processing

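COL2A1 kept its direction and its call under each of the 13 alternative fits. The 154 genes called in all became 463 with DESeq2, 831 with no filter on low counts, 91 with an offset for transcript length and 200 to 2265 with 1 library left out, the highest without parental replicate 1 (without parental replicate 2 it was 1825). The described collagen genes called became 2 with no filter (COL4A5 added) and 1 to 2 with 1 library left out (COL4A5 added without parental replicate 2, COL13A1 without parental replicate 1). With members required to have 10 reads in all 4 libraries, or 100 reads in 2, the count was 0, since COL2A1 then is no member. The list genes called became 3 with DESeq2, 7 with no filter, 2 among protein-coding genes alone and 0 to 12 with 1 library left out: 0 without either knockout library, 12 without parental replicate 1 and 11 without parental replicate 2. The share of collagen genes had a log2 ratio of 0.13 over reads and 0.28 over protein-coding TPM. In the usage test 0 collagen genes were called under each alternative run, but 0 genes in all were called with the replicate block or without either knockout library, so nothing is read from those; the count in all was 65 as reported, 76 at 20 reads, 21 at a 10% share, 92 without parental replicate 1 and 2 without parental replicate 2.

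The replicate numbers are not said to pair libraries (deviations of same-numbered libraries correlated at 0.165, with 2 pairs). With the replicate block, 1656 genes were called, 2 of them described collagen genes (COL4A5 added), and 9 list genes (AGRN, COLEC12, CRTAP, FN1, HSPG2, ITGA2, LAMA5, MMP16 and SEC24D).

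Of 328 alternative values of single collagen genes, 29 changed sign, in 12 genes, and none of these values passed the test. With an offset for transcript length the log2 fold change was -0.53 for COL17A1, -0.24 for COL1A1, 0.69 for COL24A1, -0.18 for COL26A1, 0.034 for COL27A1, 0.080 for COL6A2, -0.087 for COL6A6, 1.04 for COL7A1, -0.034 for MIA3 and -0.10 for SOX6. With library size alone it was 0.033 for COL27A1 and 0.043 for P4HB. With limma voom it was 0.25 for COL12A1, -0.057 for COL17A1 and -0.0078 for COL4A4. Among protein-coding genes alone it was -0.0041 for COL4A4, -0.010 for TIMP3 and -0.0034 for YBX1. With the replicate block it was 0.041 for COL12A1 and -0.016 for COL4A4. With 1 library left out it ran from -0.88 to 1.16 for COL12A1, -0.96 to 0.013 for COL13A1, -0.10 to 0.24 for COL14A1, -0.57 to 0.48 for COL17A1, -0.12 to 0.46 for COL26A1, -0.19 to 0.073 for COL27A1, -0.38 to 0.35 for COL4A4, -0.47 to 0.18 for COL6A2, -0.22 to 0.40 for COL6A6, -0.14 to 0.039 for P4HB, -0.10 to 0.14 for TIMP3, -0.067 to 0.12 for YBX1, -1.06 to 0.34 for DDR2, -0.076 to 0.51 for SOX9 and -0.42 to 0.74 for SOX5. The cause of these shifts was not tested. Genes of a few reads, such as COL4A3 and COL11A2, had standard errors of 0.71 and 0.80, and their log2 fold changes of 1.24 and 1.28 could not be told from 0 at this depth.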
